A study of Mus musculus with 6 samples.

Results

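Necroptosis and death receptor signalling was followed through 8 genes in mouse abdominal aorta at day 7 after an aneurysm, a widening of the artery wall, had been induced: Zbp1, Ripk1, Ripk3, Mlkl, Tradd, Fadd, Casp8 and Cflar. They were taken by gene name, and all 8 were found among the 54532 genes of the count table. The tissue came from Olfr2 KO mice, which lack the olfactory receptor Olfr2, and from WT mice, with 3 libraries of each genotype, and both genotypes had undergone aneurysm induction. No group without an aneurysm was analysed here. The method of induction, the strain, the age, the sex and the number of animals in a library were not given in the sources used here. The p-values therefore reflect variation among these libraries, which may differ from variation among animals.

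Necroptosis is a lytic form of programmed cell death. Ligand-bound death receptors gather the adaptor proteins TRADD and FADD with the kinase RIPK1, and from there the cell can survive, undergo apoptosis through caspase-8, or, when caspase-8 is not active, pass the signal to RIPK3. RIPK3 can also be engaged by ZBP1, an interferon-induced sensor of Z-form nucleic acids, and it phosphorylates MLKL, which then permeabilises the plasma membrane. Death of smooth muscle cells that depends on RIPK3 has been studied in mouse models of aortic aneurysm.

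The libraries held 17248918 to 21872027 counts in KO and 17388340 to 17987404 in WT, and all 8 genes passed the filter on low counts that left 16237 genes for testing. Olfr2 itself had 0 counts in all 6 libraries, which allows up to 3 counts or 0.140 to 0.182 CPM (counts per library scaled to a common size with TMM factors) for counting error, so the receptor's transcript could not be detected here and does not check the labels. Markers of other tissues differed between libraries. The summed CPM of 6 skeletal muscle markers was 993 in KO replicate 3 and 2.52 to 15.1 in the other 5 libraries. The summed CPM of 6 white adipocyte markers was 757 to 1430 in KO and 180 to 693 in WT, highest among WT in replicate 3. Of the 6, 4 were higher in KO at an unadjusted p under 0.05, as were 5.36% of all genes tested. The 8 smooth muscle markers were present in every library, which does not tell aorta from other tissue with smooth muscle. Their summed CPM was 1650 to 2560 in KO and 980 to 1450 in WT, and 7 of the 8 were higher in KO at that level. The part of these tissues in the values of the 8 genes was not tested.

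Promoter sequence is shown for Mlkl and Casp8, the genes with lower levels in every KO library for which RefSeq windows (GRCm38.p6) were found and whose unadjusted p was under 0.05. Windows were found for 6 of the 8 genes, all but Zbp1 and Tradd, and Ripk1 had an entry for each of its 2 starts. The 250 bases before the start, 5′ to 3′ on the gene's strand, lie at chr8:111338206-111338455 (minus strand) for Mlkl and at chr1:58802252-58802501 (plus strand) for Casp8, whose RefSeq start lies inside the gene as GENCODE draws it.
Mlkl: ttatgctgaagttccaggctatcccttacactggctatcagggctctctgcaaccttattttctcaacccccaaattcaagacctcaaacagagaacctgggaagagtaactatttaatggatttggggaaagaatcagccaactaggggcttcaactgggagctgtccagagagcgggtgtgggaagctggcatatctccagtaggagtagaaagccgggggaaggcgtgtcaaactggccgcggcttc
Casp8: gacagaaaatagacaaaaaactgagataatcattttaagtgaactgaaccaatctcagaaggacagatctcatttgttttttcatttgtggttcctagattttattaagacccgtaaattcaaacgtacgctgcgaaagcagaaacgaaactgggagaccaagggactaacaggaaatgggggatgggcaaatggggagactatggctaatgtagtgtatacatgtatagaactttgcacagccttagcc

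Each window, from 250 bases before to 50 bases after the start, was searched for the core of the interferon-stimulated response element, spelled GAAA, any 2 bases, GAAA, or TTTC, any 2 bases, TTTC on the other strand, and for the gamma-activated site, spelled TTCNNNGAA, which reads the same on both strands. The first was present in 3.44% and the second in 8.3% of 32851 windows of this length in the table. Neither spelling was in the windows of Mlkl, Casp8, Ripk3 or Fadd. The matches that did occur were in Cflar and in the second start of Ripk1, and capitals mark them below. The Ripk1 response element and the activated site nearest the start share bases. The Cflar match begins at base 7 after the start (chr1:58711487-58711516), and the Ripk1 matches begin 5, 11 and 108 bases before it (chr13:34002859-34002888, chr13:34002853-34002881 and chr13:34002756-34002784), all on the plus strand.
Cflar, response element: ccacgtctgcTTTCGGTTTCtgggcgtctc
Ripk1, response element: aacgttcccgGAAATCGAAAagcgcggaac
Ripk1, activated site nearest the start: acttcaaacgTTCCCGGAAatcgaaaagc
Ripk1, distal activated site: agaagctggtTTCCCGGAAggggcggagg

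The comparison of KO with WT asked which of these transcripts differ where Olfr2 is missing. Zbp1 and Mlkl, whose proteins act before and after RIPK3, had the lowest KO levels relative to WT, at 0.497 and 0.692 times the WT level. Casp8 and Ripk3 were lower by less, and Ripk1, Tradd, Fadd and Cflar overlapped between the genotypes. By edgeR's quasi-likelihood test 0 of the 8 genes passed an adjusted p of 0.05, a threshold that 2 of all genes tested passed, or 0.0123%. Without adjustment 3 of the 8 had a p under 0.05, Zbp1, Mlkl and Casp8, all lower in KO, against 6.09% of all genes lower and 11.4% in either direction. By DESeq2 2 of the 8 were called, Zbp1 (adjusted p = 0.000122) and Mlkl (adjusted p = 0.0229), where it called 451 genes or 2.78%. In 4 of the 8, all 3 KO libraries lay below all 3 WT libraries, as they did for 9.01% of all genes tested. In 0 of the 8 were all KO libraries above all WT libraries, as in 7.83% of all genes. The median log2 fold change of the 8 was -0.27, and 0.01 over all genes tested. The 8 genes were chosen with earlier results of these data known, so a departure from these shares is not independent evidence.

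**Figure D1:**
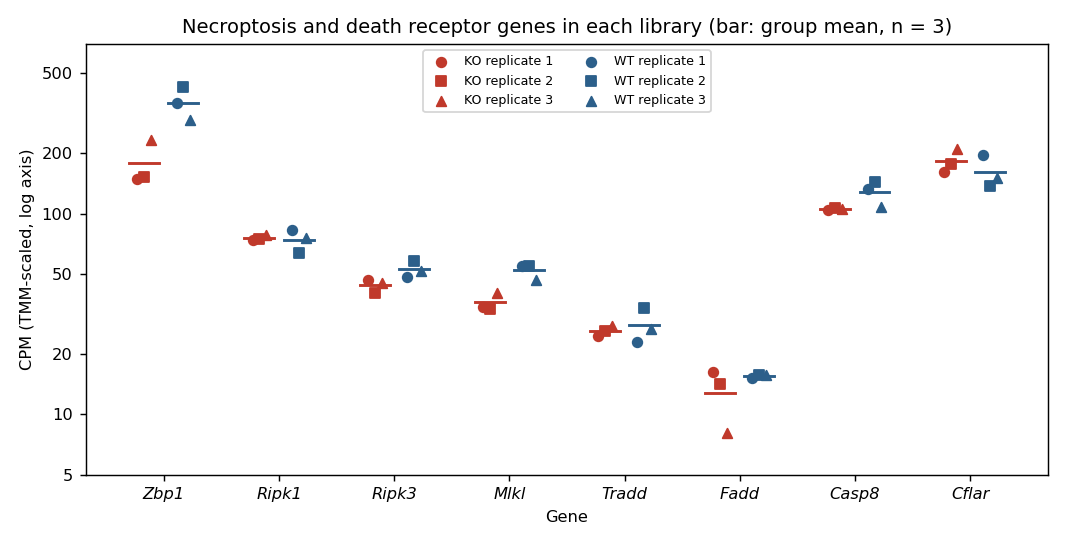
Levels of the 8 genes in each library, in CPM on a log axis, with KO libraries left of WT libraries, a marker shape for each replicate and a bar for the group mean. Zbp1 averaged 178 CPM in KO and 358 CPM in WT without overlap, whereas the Ripk1, Tradd, Fadd and Cflar points of both genotypes overlap.

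Zbp1 (ENSMUSG00000027514, chromosome 2, 173206612 to 173218923, minus strand, GRCm38, protein-coding) encodes the sensor that brings RIPK3 into play without a death receptor. It had 2593, 2989 and 4976 counts in KO replicates 1 to 3, against 6527, 7050 and 5082 counts in WT replicates 1 to 3. Every KO library was below every WT library, also in CPM, and KO replicate 3 and WT replicate 3 came nearest to each other. The group means were 178 ± 46.8 CPM in the KO libraries and 358 ± 67.4 CPM in the WT libraries (SD, n = 3 each). On the log2 scale its fold change was -1.01 (SE 0.20, 95% interval -1.47 to -0.55) with an adjusted p of 0.113 by edgeR, so it did not pass. Leaving out single libraries moved the log2 fold change between -1.25 and -0.86. Without WT replicate 3 it was -1.14 with an adjusted p of 0.0456, and without both KO replicate 3 and WT replicate 3 it was -1.37 with an adjusted p of 0.00839, by the same test. Called genes numbered 167 and 229 in those fits, or 1.0% and 1.4% of the genes tested. The libraries left out there were the nearest to each other for Zbp1, so leaving them out widens the difference. Leaving out any other single library gave adjusted p-values of 0.118 to 0.301 by edgeR.

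Ripk1 (ENSMUSG00000021408, chromosome 13, 34002363 to 34037147, plus strand) encodes the kinase and scaffold on which survival, apoptosis and necroptosis part. It had 73.7, 74.7 and 78.7 CPM in KO replicates 1 to 3, against 82.8, 64.0 and 76.0 CPM in WT replicates 1 to 3. The KO libraries lay inside the range of the WT libraries. Its log2 fold change was 0.03 (SE 0.12, 95% interval -0.24 to 0.30, adjusted p = 0.971, edgeR), and its sign turned without WT replicate 2, at -0.07, and it came to 0 without KO replicate 3. Of its exon bases 9.0% are shared with Serpinb6a on the other strand and with Gm17084, and the strand setting of the counting was not given in the sources used here.

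Ripk3 (ENSMUSG00000022221, chromosome 14, 55784995 to 55788865, minus strand) encodes the kinase that activates MLKL. It had 46.9, 40.4 and 45.3 CPM in KO replicates 1 to 3, against 48.3, 58.4 and 51.5 CPM in WT replicates 1 to 3. The groups did not overlap, though KO replicate 1 and WT replicate 1 stood close together. The log2 fold change was -0.25 (SE 0.12, 95% interval -0.52 to 0.01, adjusted p = 0.465, edgeR).

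Mlkl (ENSMUSG00000012519, chromosome 8, 111311797 to 111338177, minus strand) encodes the pseudokinase that carries out membrane rupture. It had 34.4, 33.6 and 40.4 CPM in KO replicates 1 to 3, against 54.9, 55.0 and 46.8 CPM in WT replicates 1 to 3. All KO libraries were below all WT libraries, and, as for Zbp1, KO replicate 3 was the highest KO library and WT replicate 3 the lowest WT library. Mlkl averaged 36.1 ± 3.75 CPM in the KO libraries and 52.2 ± 4.71 CPM in the WT libraries (SD, n = 3 each). The log2 fold change was -0.53 (SE 0.12, 95% interval -0.81 to -0.25) with an adjusted p of 0.145 by edgeR.

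**Figure D2:**
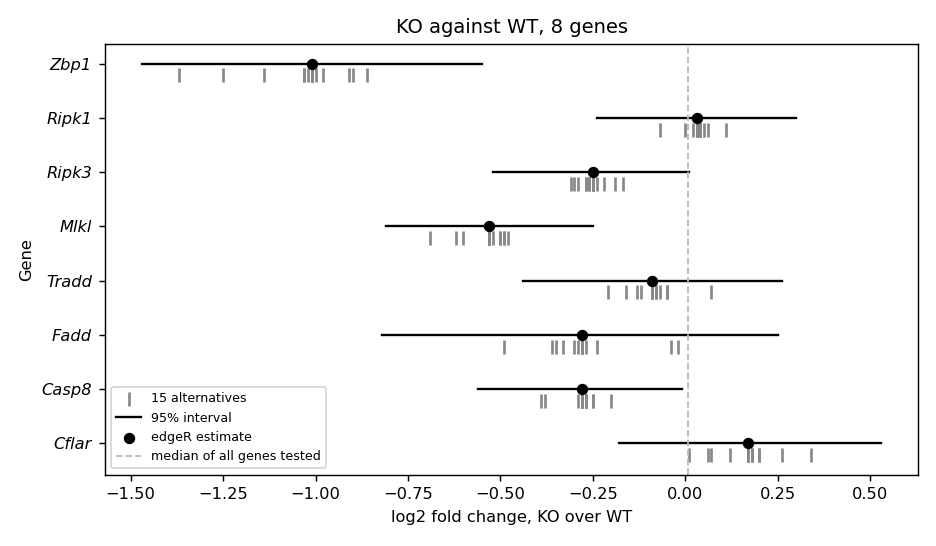
Log2 fold change of KO over WT for the 8 genes, with the edgeR estimate as a point, its 95% interval as a line, the 15 alternative settings as ticks under it and the median of all genes tested as a dashed line. Zbp1 at -1.01 and Mlkl at -0.53 have intervals farthest below 0, and Casp8 at -0.28 has an interval that ends at -0.01.

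The death domain adaptors showed no difference larger than their spread. Tradd (ENSMUSG00000031887, chromosome 8, 105258286 to 105264609, minus strand) links the TNF receptor to RIPK1. It had 24.6, 26.0 and 27.4 CPM in KO replicates 1 to 3, against 23.0, 33.7 and 26.5 CPM in WT replicates 1 to 3, and all KO values lay within the WT range. Its log2 fold change was -0.09 (95% interval -0.44 to 0.26, adjusted p = 0.894, edgeR), and 0.07 without WT replicate 2, the library with its highest value.

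Fadd (ENSMUSG00000031077, chromosome 7, 144577318 to 144582463, minus strand) joins death receptors to caspase-8. It had 16.3, 14.1 and 8.1 CPM in KO replicates 1 to 3, against 15.2, 15.7 and 15.7 CPM in WT replicates 1 to 3. The low KO mean came from replicate 3, which held 174 counts where the other 5 libraries held 260 to 285. The log2 fold change was -0.28 (95% interval -0.82 to 0.25, adjusted p = 0.724, edgeR), and -0.04 without KO replicate 3. Of its exon bases 6.1% overlap the antisense gene Faddos.

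Casp8 and Cflar lie side by side on chromosome 1, both on the plus strand, with 36489 bases between the end of Cflar and the start of Casp8. Casp8 (ENSMUSG00000026029, 58795374 to 58847503) encodes the protease that starts death receptor apoptosis and cleaves RIPK1 and RIPK3. It had 104, 107 and 105 CPM in KO replicates 1 to 3, against 133, 143 and 108 CPM in WT replicates 1 to 3. KO libraries were close to one another and all below WT, with WT replicate 3 just above them. The log2 fold change was -0.28 (SE 0.12, 95% interval -0.56 to -0.01, adjusted p = 0.421, edgeR), with an unadjusted p of 0.0458. Under other scalings that p was 0.0429 with DESeq2 size factors, 0.056 with upper quartile factors and 0.0734 with library size alone. Of the fits that left out 1 library it stayed under 0.05 without WT replicate 3 alone.

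Cflar (ENSMUSG00000026031, 58711508 to 58758884) encodes FLIP, a relative of caspase-8 that lacks protease activity and restrains it. It had 161, 177 and 211 CPM in KO replicates 1 to 3, against 197, 138 and 151 CPM in WT replicates 1 to 3. The genotypes overlapped through WT replicate 1. The log2 fold change was 0.17 (SE 0.16, 95% interval -0.18 to 0.53, adjusted p = 0.75, edgeR), and it ranged from 0.06 to 0.34 with single libraries left out.

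Within a library, the counts of a pair of these genes can be compared free of library scaling. The log2 ratio of Cflar to Casp8 counts was 0.62, 0.72 and 1.0 in KO replicates 1 to 3, against 0.56, -0.05 and 0.48 in WT replicates 1 to 3. All KO libraries were above all WT libraries, with a difference of 0.45 (two-sided exact permutation p = 0.1, which is the lowest possible with 3 libraries a group). Without WT replicate 2 that difference was 0.26. The log2 ratio of Mlkl to Casp8 was -1.55 ± 0.16 in KO and -1.29 ± 0.09 in WT, a difference of -0.26 (SD, n = 3 each, exact permutation p = 0.2). The log2 ratio of Ripk3 to Ripk1 was -0.78 ± 0.12 in KO and -0.49 ± 0.33 in WT, a difference of -0.29 (SD, n = 3 each, exact permutation p = 0.2). The Ripk3 to Ripk1 ratios overlapped between the genotypes, with a difference of -0.11 without WT replicate 2, and those of Mlkl to Casp8 met at -1.38 in KO replicate 3 and WT replicate 2. In all 3 ratios were tested, with no adjustment.

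**Figure D3:**
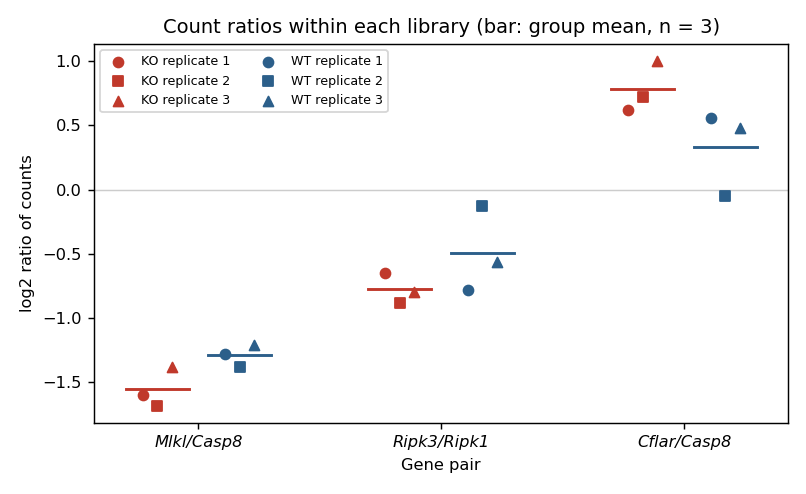
Log2 ratio of the counts of Mlkl to Casp8, Ripk3 to Ripk1 and Cflar to Casp8 in each library, with KO left of WT and a bar for the group mean. The Cflar to Casp8 ratio averaged 0.78 in KO and 0.33 in WT with no overlap, and the other ratios overlapped or met.

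Compared per kilobase of exon, as levels in CPM per kb, Zbp1 and Casp8 were the highest of the 8 in both genotypes and Fadd the lowest. Zbp1 stood at 50.3 ± 13.3 in KO and 101 ± 19.1 in WT, and Casp8 at 36.5 ± 0.588 in KO and 44.3 ± 6.22 in WT (SD, n = 3 each). Below them came Ripk3 at 19.3 in KO and 23.0 in WT and Mlkl at 15.7 in KO and 22.7 in WT. The library ranges of Ripk3 and Mlkl overlapped in WT and met at 17.6 in KO. Cflar and Tradd overlapped in both genotypes, between 10.9 and 18.1 over all libraries. Ripk1 stood at 9.08 in KO and 8.9 in WT, and Fadd at 3.29 in KO and 3.99 in WT. Exon lengths count every annotated exon, from 1866 bases for Tradd to 12669 for Cflar, so the level of a gene with long rare isoforms is understated.

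The genes around the pathway were described through 8 lists with 66 genes, of which 65 were tested, and edgeR called 0 of them. Without adjustment 13 were lower and 1 was higher in KO at a p under 0.05, where 6.09% of all genes were lower and 5.36% higher. Their median log2 fold change was -0.16. DESeq2 called 4 of them, among them Adar, Stat2 and Tlr3, where it called 2.78% of all genes tested. These lists too were chosen with earlier results of these data known, so an excess over those shares is not independent evidence.

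The interferon signalling that induces Zbp1 had the lowest median of the 8 lists. Of 9 genes of the interferon input, 5 had an unadjusted p under 0.05, all lower in KO, with a median log2 fold change of -0.38. Adar, whose protein edits double-stranded RNA and restrains ZBP1, had 89.4, 106 and 109 CPM in KO replicates 1 to 3, against 172, 194 and 157 CPM in WT replicates 1 to 3. These groups stood well apart, with log2 fold change -0.78 (SE 0.13) and edgeR adjusted p = 0.0921. Without WT replicate 3, the lowest WT library for Adar, its value was -0.85 with an adjusted p of 0.0342 (edgeR). Adar was called in 4 of the 15 alternative settings. Stat2, a transcription factor activated by type I interferon, averaged 207 ± 50.2 CPM in the KO libraries and 371 ± 58.5 CPM in the WT libraries (SD, n = 3 each), with a log2 fold change of -0.84. It did not pass, at an adjusted p of 0.132 by edgeR. Of the exon bases of Adar 16.8% are shared with Chrnb2 on the other strand, so its counts are less certain.

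Death ligands and receptors held 3 genes of 10 with an unadjusted p under 0.05, all lower in KO. Tnfsf10, which encodes the death ligand TRAIL, had 35.7, 43.2 and 37.3 CPM in KO replicates 1 to 3, against 74.9, 49.5 and 48.7 CPM in WT replicates 1 to 3. Fasl, the ligand of Fas made by cytotoxic lymphocytes, averaged 4.09 ± 1.69 CPM in the KO libraries and 7.13 ± 1.33 CPM in the WT libraries (SD, n = 3 each), and its groups overlapped. Tlr3, a receptor for double-stranded RNA that reaches RIPK3 through TRIF, had a log2 fold change of -0.58 (adjusted p = 0.195, edgeR). The death receptor genes Fas and Tnfrsf1a and the ligand gene Tnf overlapped between the genotypes, whereas every KO library was below WT for Tlr3. Fas had a log2 fold change of 0.28 (95% interval -0.07 to 0.63), Tnfrsf1a of -0.22 (95% interval -0.51 to 0.07) and Tnf of -0.32 (95% interval -0.87 to 0.23).

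**Figure D4:**
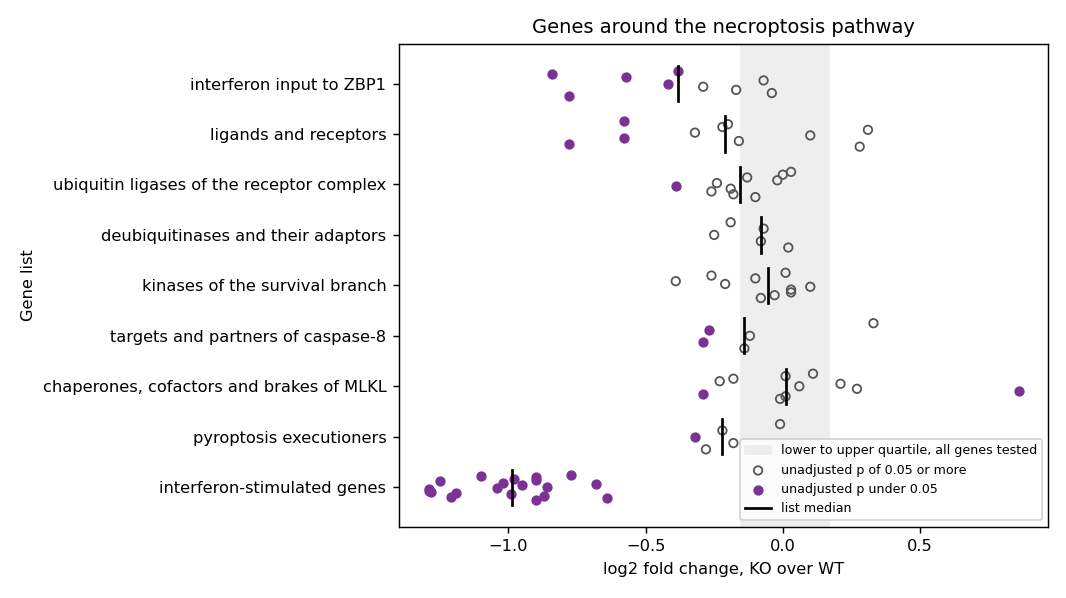
Log2 fold change of KO over WT for each tested gene of the 8 pathway lists and of 20 interferon-stimulated genes, with filled points for an unadjusted p under 0.05, a bar for the list median and a grey band from the lower to the upper quartile of all genes tested. The interferon-stimulated genes have a median of -0.99 and the interferon input one of -0.38, whereas the kinases of the survival branch have one of -0.06.

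Among the enzymes that decide between survival and death, and their partners, differences were small. Of 10 ubiquitin ligase genes 1 had an unadjusted p under 0.05, Rnf31, which encodes the catalytic subunit of the linear ubiquitin ligase complex, with a log2 fold change of -0.39 (adjusted p = 0.293, edgeR). The other subunits Sharpin at -0.24 and Rbck1 at -0.19 had all KO libraries below WT, as did 9.01% of all genes tested, without an unadjusted p under 0.05. Of 5 genes for deubiquitinases and their adaptors 0 had one, with Spata2 at -0.25, Tnip1 at -0.19 and Otulin at -0.08. Of 10 genes for kinases of the survival branch and their regulatory subunits 0 had one, with Tab1 at -0.39, Mapkapk2 at -0.21 and Tab3 at -0.26. For these lists the p-values are edgeR's, which called 0 of their members after adjustment.

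Of 5 targets and partners of caspase-8, 2 were lower in KO at an unadjusted p under 0.05 and edgeR called 0, with a median log2 fold change of -0.14. Diablo, whose protein relieves the inhibitors of caspases, had a log2 fold change of 0.33 and shares 40.9% of its exon bases with other genes.

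Of 11 genes for chaperones, cofactors and brakes of MLKL, 1 was lower and 1 higher at an unadjusted p under 0.05. Chmp4b, a subunit of the ESCRT machinery that repairs the membrane, had a log2 fold change of -0.29 (adjusted p = 0.418, edgeR). The chaperone gene Hsp90aa1 had 284, 383 and 910 CPM in KO replicates 1 to 3, against 259, 356 and 255 CPM in WT replicates 1 to 3. The groups overlapped, and its log2 fold change of 0.86 came to 0.20 without KO replicate 3. Itpk1, an inositol phosphate kinase, had a log2 fold change of -0.23. In the neighbouring pathway of pyroptosis, Gsdmd, the pore-forming gasdermin, averaged 122 ± 2.62 CPM in the KO libraries and 152 ± 7.19 CPM in the WT libraries (SD, n = 3 each), and Casp1 and Gsdme had log2 fold changes of -0.28 and -0.22. Gsdmd had an adjusted p of 0.244 (edgeR), and Gsdmc, another of the 6 genes on that list, was listed at 0 counts in all libraries.

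Markers of T cells, of natural killer cells and of the interferon response were lower in KO along with Zbp1 and Mlkl. The sums of general leukocyte markers and of dendritic cell markers were lower in KO too. Lists for macrophages, monocytes and B cells were mixed in direction, and 0 of 6 neutrophil markers had a negative log2 fold change. In bulk tissue fewer cells of a type and less RNA per cell cannot be told apart. At an unadjusted p under 0.05 by edgeR, 6.09% of all genes tested were lower in KO and 5.36% higher, and 48.9% had a negative log2 fold change. After adjustment edgeR called 0 genes of these lists, and 0 of the smooth muscle and adipocyte markers. The lists were chosen with earlier results of these data known, so an excess over those shares is not independent evidence. Of 7 leukocyte markers 7 had a negative log2 fold change, 3 of them at an unadjusted p under 0.05, and their summed CPM was 2860 to 3250 in KO and 3450 to 4310 in WT. Of 8 T cell markers 8 were lower at an unadjusted p under 0.05, with a summed CPM of 148 to 184 in KO and 243 to 301 in WT. Of 6 natural killer cell markers 6 were lower too, with 73.3 to 110 in KO and 150 to 231 in WT. All 6 dendritic cell markers had a negative log2 fold change, 3 of them at an unadjusted p under 0.05. Their summed CPM was 102 to 128 in KO and 164 to 201 in WT. Of 7 macrophage markers 0 were lower and 1 higher at that level, with 3200 to 4010 in KO and 3320 to 5080 in WT. Of 6 monocyte markers 2 were lower and 1 higher at that level, with 1080 to 1450 in KO and 1350 to 2290 in WT. Of 6 neutrophil markers 0 were lower and 2 higher, with a median log2 fold change of 0.28. Of 6 B and plasma cell markers 3 had a negative log2 fold change, and 0 had an unadjusted p under 0.05 by edgeR. None of these markers was at 0 in any library. Of 20 interferon-stimulated genes 20 had an unadjusted p under 0.05, all lower, with a summed CPM of 2350 to 3140 in KO and 3850 to 6750 in WT. The part of these cells and of this response in the values of the 8 genes was not tested.

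Set against these sums within each library, the genes differed in whether their groups stayed apart. Zbp1 per 1000 CPM of the interferon-stimulated genes was 63.3, 62.8 and 73.7 in KO replicates 1 to 3, against 62.8, 63.2 and 75.9 in WT replicates 1 to 3, and the ranges of the genotypes overlapped. Per 1000 CPM of the leukocyte markers Zbp1 was 51.9, 47.0 and 71.7 in KO replicates 1 to 3, against 92.3, 99.0 and 84.6 in WT replicates 1 to 3, and the KO libraries stayed below. Mlkl on that scale was 10.3 to 12.5 in KO and 12.8 to 14.3 in WT, also without overlap. Other sums gave other orders. Per 1000 CPM of the T cell markers both genes overlapped, Zbp1 at 832 to 1400 in KO and 1170 to 1460 in WT and Mlkl at 183 to 245 in KO and 183 to 226 in WT. Per 1000 CPM of the interferon-stimulated genes Mlkl was higher in every KO library, at 12.9 to 14.7 in KO and 8.14 to 12.2 in WT. The same held there for Ripk1, Ripk3, Tradd, Casp8 and Cflar, and the sum itself was lower in KO. On the leukocyte scale Casp8 was 32.5 to 36.4 in KO and 31.3 to 34.8 in WT, and Ripk3 was 12.5 to 16.4 in KO and 12.6 to 14.9 in WT, and both overlapped. Cflar was 54.4 to 65.2 in KO and 32.1 to 51.3 in WT, higher in every KO library. Ripk1 and Tradd were also higher in every KO library on the leukocyte scale, and the leukocyte sum itself was lower in KO. Per 1000 CPM of the macrophage markers Cflar overlapped between the genotypes. These ratios were described and not tested.

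**Figure D5:**
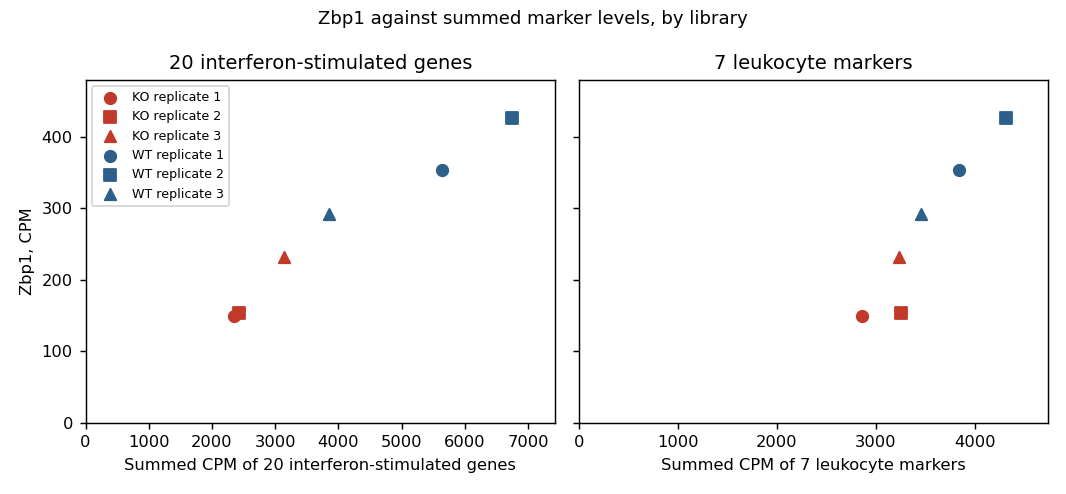
Zbp1 in CPM against the summed CPM of 20 interferon-stimulated genes (left) and of 7 leukocyte markers (right), with a point for each KO and WT library. From KO replicate 1 at 149 CPM of Zbp1 to WT replicate 2 at 427 CPM, the order of the libraries is the same on both axes on the left, and on the right KO replicates 2 and 3 change places.

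Over the 6 libraries Zbp1 and Mlkl had a Pearson correlation of 0.99 in log2 CPM, Zbp1 and Casp8 of 0.83, and Zbp1 and Ripk3 of 0.81. Ripk1 went with Cflar, at 0.82, and against Tradd, at -0.87. These points share the genotype difference and the tissue makeup of 6 libraries, and they describe those libraries. Of 13384 genes with a mean of at least 1 CPM, predicted genes left out, those most like Zbp1 were Oas1c, an interferon-induced synthetase homologue, Stat2, and Ctsw, a cathepsin of cytotoxic lymphocytes, at 0.9959, 0.9956 and 0.994. Those most like Mlkl were Oas1c, Rassf5, and Klrk1, the NKG2D receptor, at 0.9967, 0.9924 and 0.9918. For Casp8 they were the cytokine gene Il27, Actr3, an actin nucleator subunit, and the cytokine gene Il18, at 0.9937, 0.9934 and 0.9868. For Ripk3 the leading ones were Pitpna and Psen2, a presenilin, at 0.9949 and 0.9938.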

How the data were processed

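RNA was sequenced from abdominal aorta of 3 KO and 3 WT libraries, with poly-T selection and random hexamer priming per the labels' protocols. The authors deposited raw read counts for 54532 genes. Per the submitters' processing notes the tools were HISAT2 2.0.5 and featureCounts 1.5.0-p3, with the build GRCm38. How strand and reads matching several genes were handled was not given in the sources used here.

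Counts were tested in R 4.3.3 with edgeR 4.0.16 (filterByExpr, TMM, quasi-likelihood test, Benjamini-Hochberg adjustment over 16237 genes, threshold 0.05). The standard error was the log2 fold change divided by the square root of F, and intervals used the test's degrees of freedom. Log2 CPM used a prior count of 2, and count ratios added 0.5 counts. Positions and exons came from GENCODE mouse release M21 (GRCm38). Chi-square per degree of freedom between libraries was 25.6 to 81, so none was a repeat. As alternatives the counts were rescaled, filtered otherwise, tested with DESeq2 1.42.0 and with limma-voom (limma 3.58.1), fitted with a replicate block, or stripped of libraries.

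All 8 genes were named, with the 3 of smallest p in each pathway list plus Tnf, Tnfrsf1a, Fas and Fasl, and the 3 genes most correlated with each of Zbp1, Mlkl, Ripk3 and Casp8. Some genes that this rule takes are not reported here. Members and lists were chosen with earlier results of these data known. Figures used matplotlib 3.10.9.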

Additional observations from a re-analysis of the deposited data

How the results depend on the processing

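Of the 8 genes, 0 were called under every alternative except DESeq2, which called 2 (Zbp1 and Mlkl), and the fits without WT replicate 3 and without KO replicate 3 and WT replicate 3 together, which called 1 each (Zbp1). Over all genes the calls numbered 451 by DESeq2, 44 with no filter on low counts, 0 by limma-voom, 229 without KO replicate 3 and WT replicate 3 together, and 0 to 167 with single libraries left out. Unadjusted p under 0.05 was reached by 1845 genes in limma-voom's fit. Of the pathway genes DESeq2 called 4, the unfiltered fit 1 (Adar), the fit without KO replicate 3 and WT replicate 3 together 2, and fits without 1 library 0 to 1. Leaving out single libraries turned the sign of Ripk1 (-0.07 to 0.11), Tradd (-0.21 to 0.07), Tnf (-0.48 to 0.04) and Tnip1 (-0.34 to 0.00), none of which was called. The 8 genes at an unadjusted p under 0.05 numbered 2 to 4 with single libraries left out (4 without WT replicate 1, where Ripk3 and Cflar joined and Casp8 did not). The replicate numbers are not known to pair the libraries: same-numbered KO and WT libraries had correlations of -0.101, -0.062 and -0.12 in their deviations from the group means, and no library correlated best with its own number. With the replicate block 0 genes were called, 2 of the 8 and 11 pathway genes had an unadjusted p under 0.05, and the ratio differences were -0.26, -0.29 and 0.45 as before. With single libraries left out the ratio differences ranged over -0.35 to -0.20 for Mlkl to Casp8, -0.43 to -0.11 for Ripk3 to Ripk1 and 0.26 to 0.57 for Cflar to Casp8. The causes of these shifts were not tested.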
